A study of Mus musculus with 14 samples.

Results

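Slc16a14 and Pdzrn4 are 2 of the 27653 genes named in the tables, and they were chosen by their lower counts and TPM in the epidermis of p63beta mice than of p63alpha mice. Of all named genes, 24411 were listed for epidermis and 27179 for keratinocytes. The p63alpha mice carried the floxed Trp63-Ex13fl/fl allele with no Cre. The p63beta mice carried the same allele plus KRT14-Cre, a recombinase driven by a keratin promoter that is active in basal keratinocytes, which removes the exon 13 that encodes the alpha C-terminus. Both groups therefore shared the floxed allele, and the control group had no Cre. Epidermis was taken from newborn pups after overnight trypsin had parted it from the dermis, in 4 libraries per genotype. Primary keratinocytes from newborn pups were cultured in low-calcium medium, in 3 libraries per genotype. Nothing in the labels ties a library to 1 animal or culture of its own. A p-value here therefore measures the spread between these libraries, which may be technical.

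Slc16a14 encodes monocarboxylate transporter 14, a member of the SLC16 family of membrane carriers whose own substrate is not settled. Several SLC16 proteins move lactate, pyruvate and ketone bodies across the plasma membrane together with protons, and others carry thyroid hormone or aromatic amino acids. Some of these carriers need a partner glycoprotein (basigin, embigin or neuroplastin) to reach the cell surface. Pdzrn4, also called LNX4, encodes a protein with a RING domain, the mark of many E3 ubiquitin ligases, followed by PDZ domains that bind the tails of other proteins. Trp63 encodes p63, a transcription factor of the p53 family that is required for stratified epithelia and is most abundant in the basal layer.

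Slc16a14 lies on the minus strand of mouse chromosome 1, at chr1:84905488-84935281 in build GRCm38 (mm10), a span of 29794 bases. Its only transcript in the epidermis table has 5 exons in GENCODE. Pdzrn4 lies on the plus strand of chromosome 15, at chr15:92396810-92771827, a span of 375018 bases, and has 2 transcripts with different starts. The sequences before 3 curated RefSeq starts are shown because both genes fell together and because the Pdzrn4 starts lie far apart. Each was read from 5′ to 3′ on the strand of its gene, and capitals mark a match to a searched motif. The Slc16a14 bases are chr1:84935135-84935333, minus strand, and leave out the 51 bases of the 250-base window that GENCODE places in the first exon. The window was counted from the curated start of Slc16a14, but the RefSeq gene span given above reaches further, so 147 of the printed bases lie inside that span. The Pdzrn4 bases are chr15:92396560-92396809 for the first start and chr15:92596859-92597108 for the internal start, both on the plus strand. The sequences are from RefSeq, GRCm38.p6.
Slc16a14: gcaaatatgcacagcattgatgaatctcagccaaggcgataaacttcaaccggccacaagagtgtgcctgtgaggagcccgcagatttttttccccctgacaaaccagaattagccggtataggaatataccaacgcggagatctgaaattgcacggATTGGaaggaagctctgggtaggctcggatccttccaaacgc
Pdzrn4 first start: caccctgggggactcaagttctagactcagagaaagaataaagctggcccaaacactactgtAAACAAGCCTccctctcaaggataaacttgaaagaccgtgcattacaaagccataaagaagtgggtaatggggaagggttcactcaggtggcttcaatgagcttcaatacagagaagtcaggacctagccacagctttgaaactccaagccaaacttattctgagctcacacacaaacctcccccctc
Pdzrn4 internal start: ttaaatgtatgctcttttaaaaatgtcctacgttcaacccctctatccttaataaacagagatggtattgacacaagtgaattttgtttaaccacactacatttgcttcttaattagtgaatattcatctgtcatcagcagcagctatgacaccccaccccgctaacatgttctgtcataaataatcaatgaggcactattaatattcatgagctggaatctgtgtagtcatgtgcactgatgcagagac

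The windows were searched on both strands for 4 motifs: the TATA box, as TATAAA; the CCAAT box, as CCAAT; the AP-1 motif, as TGANTCA; and the p53 family half-site, by its usual degenerate consensus. The Slc16a14 window held CCAAT on the opposite strand, read as ATTGG at positions -93 to -89 from the curated start, which is within the RefSeq gene span. CCAAT was present in 33.8% of the 32851 RefSeq windows of the same length. The Pdzrn4 first-start window held 1 p53 family half-site, AAACAAGCCT, at positions -188 to -179. That motif was present in 7.13% of all windows. The internal-start window held none of the 4 motifs, of which TATAAA occurred in 12.4% and TGANTCA in 6.75% of all windows. These matches describe letters and are not evidence of binding. The Slc16a14 window had 50.4% GC and 11 CpG, whereas the Pdzrn4 windows had 47.2% GC with 1 CpG and 37.2% GC with 2 CpG. The median window had 52.4% GC and 6 CpG.

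Library totals ranged from 21290068 to 44909629 estimated counts in epidermis and from 20688027 to 30066041 read pairs in keratinocytes. The epidermis libraries are called EP07, EP08, EP09 and WT3 (p63alpha) and EP10, EP11, EP12 and KO2 (p63beta), after their column names. The column names of WT3 and KO2 carry another code than those of the 6 EP libraries, and no label says what the code stands for. The Trp63 transcripts were compared between the genotypes, but which of them hold the targeted exon was not determined here. Of 5 detected transcripts, a pair at 37.5 to 107 TPM (transcripts per 1000000) and 8.19 to 14.1 TPM in the controls, were listed at 0 in all p63beta libraries. Another stood at 8.01 to 23.6 TPM in the controls and reached 134 to 250 TPM in p63beta. The fourth went from 30.7 to 116 TPM in the controls to 6.16 to 19.6 TPM in p63beta, and the fifth from 0 to 1.49 TPM to 14.4 to 48.1 TPM. Basal keratin and adhesion markers summed to 6657 to 14719 TPM in p63alpha and 6341 to 16627 TPM in p63beta epidermis, so keratinocyte RNA was present throughout.

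Slc16a14 was expressed at a moderate level in control epidermis and was low in p63beta epidermis. The p63alpha libraries held 303 counts (8.87 CPM, counts per 1000000 library counts) in EP07, 140 (4.74 CPM) in EP08, 109 (5.12 CPM) in EP09 and 352 (10.9 CPM) in WT3. The p63beta libraries held 33 counts (1.38 CPM) in EP10, 23 (0.739 CPM) in EP11, 27 (1.16 CPM) in EP12 and 29 (0.646 CPM) in KO2. Every p63beta library lay below every p63alpha library, and the lowest control was 3.43 times the highest p63beta value. WT3 and EP07 were the high controls, and EP08 and EP09 were nearer to 5 CPM. The mean fell from 7.41 ± 2.98 CPM (SD, n = 4) to 0.982 ± 0.348 CPM (SD, n = 4), which left 13.3% of the control level. The fitted log2 fold change was -2.91 with a standard error of 0.42, a 7.54-fold lower level.

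Pdzrn4 was scarcer than Slc16a14 and varied less among the controls. The p63alpha libraries held 110 counts (3.22 CPM) in EP07, 75 (2.54 CPM) in EP08, 48 (2.25 CPM) in EP09 and 101 (3.13 CPM) in WT3. The p63beta libraries held 9 counts (0.377 CPM) in EP10, 15 (0.482 CPM) in EP11, 12 (0.515 CPM) in EP12 and 13 (0.289 CPM) in KO2. The groups did not overlap, and the lowest control was 4.37 times the highest p63beta value. The mean fell from 2.79 ± 0.465 CPM (SD, n = 4) to 0.416 ± 0.103 CPM (SD, n = 4), or 14.9% of the control level. The fitted log2 fold change was -2.71 with a standard error of 0.36, a 6.53-fold lower level. With 9 to 15 counts in each p63beta library, counting error alone is large; the exact Poisson 95% interval of EP10 ran from 0.172 to 0.716 CPM. These intervals cover counting error only.

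**Figure D1:**
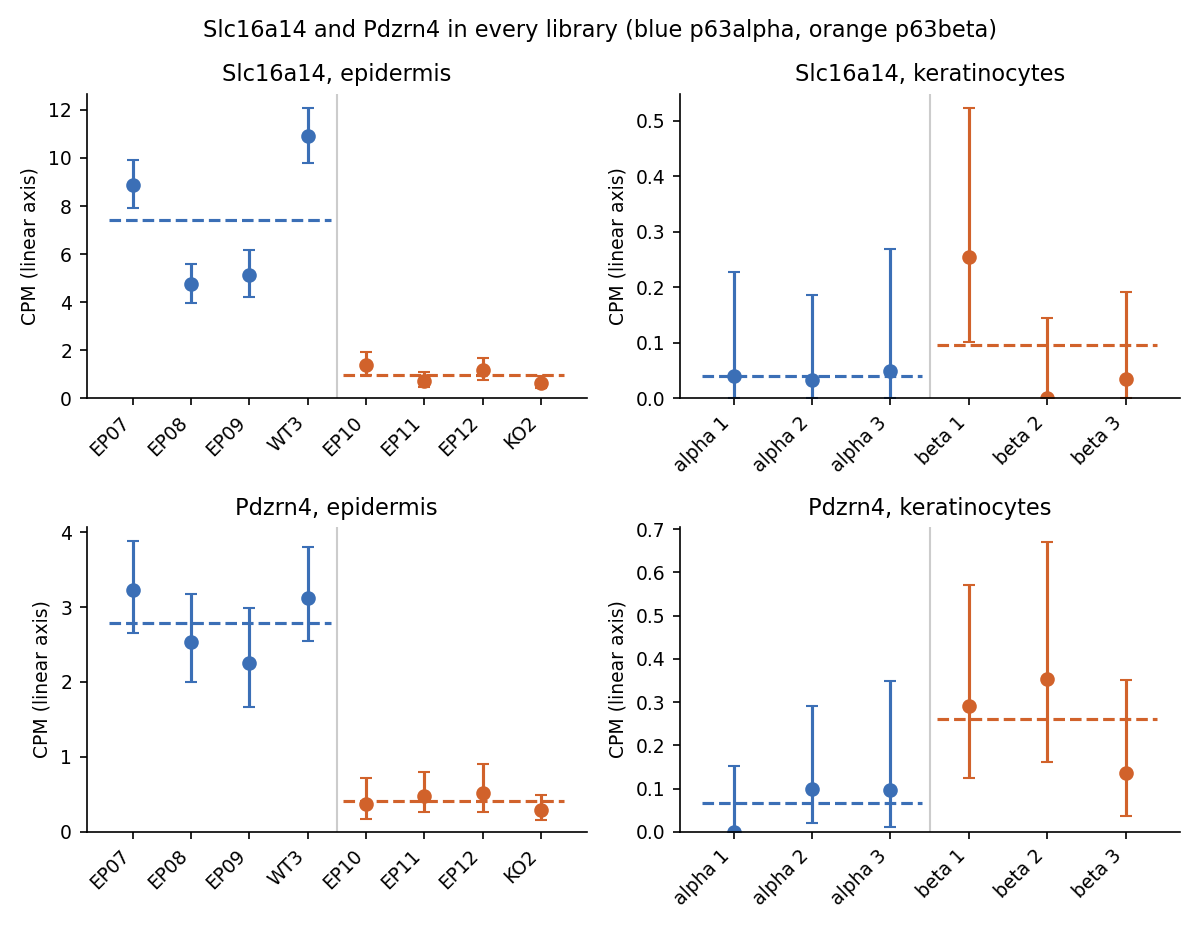
CPM of Slc16a14 (top) and Pdzrn4 (bottom) in each epidermis library (left) and keratinocyte library (right), on linear axes that differ between panels; points are libraries, bars are exact Poisson 95% intervals and dashed lines are group means. In epidermis every p63beta point lies below every p63alpha point, and in keratinocytes all points lie at or below 0.354 CPM.

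Both genes were chosen for this contrast, so their epidermal fall is a description and no test of it is offered. In edgeR's quasi-likelihood fit, 32 of 13796 genes (0.232%) passed a Benjamini-Hochberg adjusted p of 0.05. Of those, 30 (0.217%) were higher in p63beta and 2 (0.0145%) were lower, and the 2 lower genes were Slc16a14 and Pdzrn4. That count restates how the genes were chosen, and nothing is read from it. Groups without overlap, lower in p63beta, were found for 201 genes (1.46%), and higher in p63beta for 203 (1.47%). By size of the log2 fold change, Slc16a14 ranked 12 and Pdzrn4 22 from the lowest. Neither was called without EP07, KO2, EP10 or EP11, and Slc16a14 was also not called without EP12. The log2 fold change stayed between -3.09 and -2.61 for Slc16a14 and between -2.83 and -2.60 for Pdzrn4 when each library was left out in turn. In the authors' deposited table, which came from DESeq2, Pdzrn4 and Slc16a14 had log2 fold changes of -2.73 and -2.93. They held ranks 1 and 2 by adjusted p among the 35 lower genes of that table.

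The libraries under the 2 column codes could be compared. Among the 3 EP libraries per genotype, Slc16a14 was 5.71-fold lower and Pdzrn4 5.83-fold lower in p63beta. Between WT3 and KO2, with 1 library each and no replicate, the differences were 16.9-fold and 10.8-fold. WT3 held the highest control value of Slc16a14 and KO2 the lowest p63beta value of both genes. With only the EP libraries, edgeR called 8 genes, all higher, and neither Slc16a14 nor Pdzrn4.

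Compared per length, Slc16a14 was the more abundant transcript. Its level was 5.35 ± 1.90 TPM (SD, n = 4) in p63alpha and 0.703 ± 0.266 TPM (SD, n = 4) in p63beta. Pdzrn4 was at 1.19 ± 0.141 TPM and 0.172 ± 0.0473 TPM (SD, n = 4 each). The ratio of Slc16a14 to Pdzrn4 ran from 3.24 to 6.06 in p63alpha libraries and from 2.66 to 6.38 in p63beta libraries, so the ranges overlapped. Among genes with any TPM, Slc16a14 moved from percentile 46.8 to 29.4 and Pdzrn4 from 31.7 to 19.1. Neither was silent in p63beta epidermis. In bulk RNA, fewer cells of a type and less RNA per cell cannot be told apart.

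Of the genes that were lower but not called, the 5 named ones with the lowest p are described here. Unnamed gene models were passed over, so others may lie nearer the threshold. The lowest adjusted p among them was 0.0514 (edgeR) for Tcaf2, which encodes a regulator of the cold-sensing channel TRPM8. Tcaf2 went from 15.1 ± 1.75 to 6.42 ± 1.10 CPM (SD, n = 4 each). Gadl1, a relative of the glutamate decarboxylases, went from 78.7 ± 35.4 to 19.8 ± 5.40 CPM, with an adjusted p of 0.0904 in edgeR. Rgs9, a regulator of G protein signalling, had a log2 fold change of -1.80 and Kcnj2, an inward-rectifier potassium channel, one of -2.92. Tmtc1, a membrane protein of the endoplasmic reticulum, had one of -2.45. All 5 genes had groups without overlap, as had 1.46% of all genes in this direction, and none of them passed the threshold. They were picked by p in this same contrast, so their separation largely restates that choice.

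**Figure D2:**
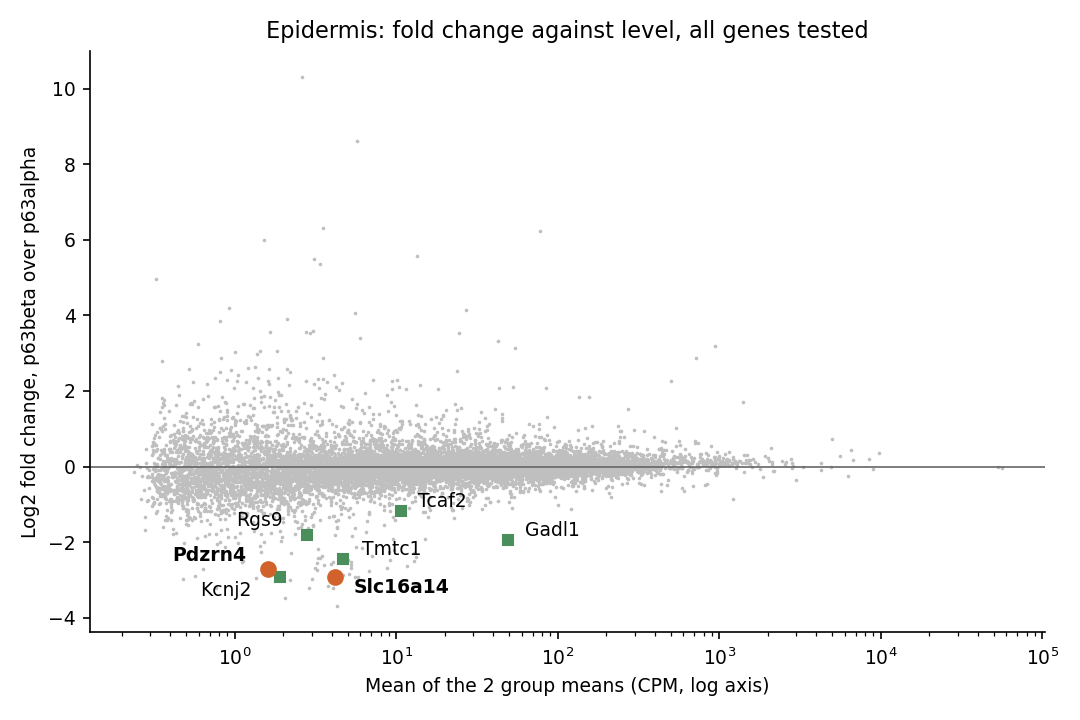
Log2 fold change (p63beta over p63alpha, linear axis) against the mean of the group means in CPM (log axis) for the 13796 genes tested in epidermis. Slc16a14 and Pdzrn4 are the orange circles at -2.91 and -2.71, and green squares mark the 5 lower named genes with the next lowest p.

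Salmon split the Pdzrn4 counts between 2 transcripts, which are named here by their starts but differ at both ends. The transcript from the first start has 10 exons in GENCODE. The transcript from the internal start has 8 exons and lacks the first 3 exons, which lie at chr15:92396881-92397505, chr15:92399747-92399833 and chr15:92401929-92402036. The internal-start transcript also has a first exon of its own and a last exon of 2324 bases, against 1541 bases in the first-start transcript. The split is therefore an estimate and does not measure the use of the starts alone. Salmon gave all Pdzrn4 TPM to the first-start transcript in EP07, EP08 and WT3, at 1.36, 1.13 and 1.22 TPM. The same held for EP10, EP11 and EP12, at 0.156, 0.202 and 0.217 TPM. EP09 differed from the other controls, with 0.562 TPM for the first start and 0.469 TPM (45.5% of the gene) for the internal start. That share rests on 19.9 estimated counts. In KO2 the internal start took 10.1% of the gene, or 1.13 estimated counts. The lowest first-start value in p63alpha, 0.562 TPM, still exceeded the highest in p63beta, 0.217 TPM.

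**Figure D3:**
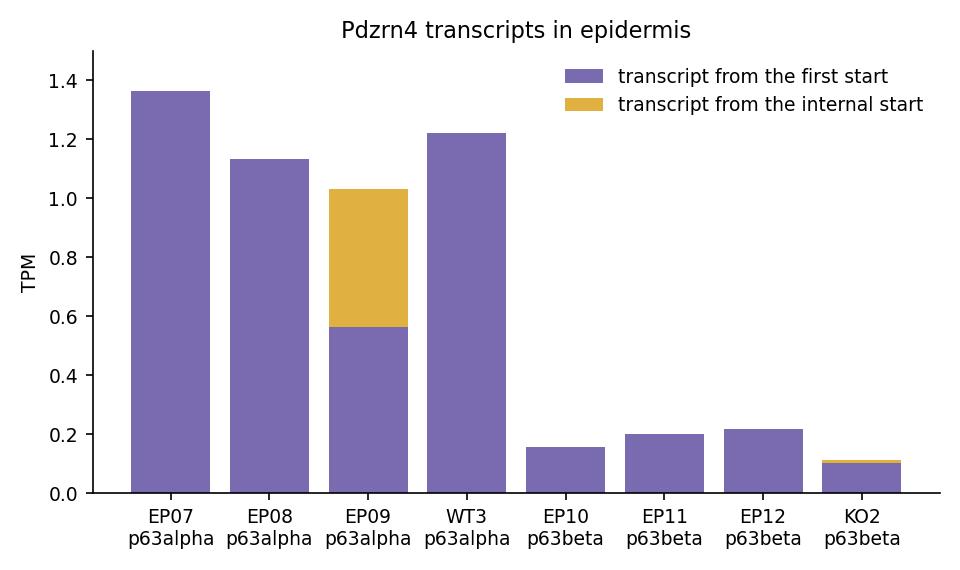
TPM of the Pdzrn4 transcripts in each epidermis library, stacked, on an axis that starts at 0. The internal-start transcript appears in EP09 (0.469 TPM) and KO2 (0.0113 TPM) and is listed at 0 in the other libraries.

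Both genes were close to silent in cultured keratinocytes, which the choice of the genes did not use. Slc16a14 had 1 count in each of the 3 p63alpha libraries and 7, 0 and 1 counts in p63beta libraries 1, 2 and 3. Its p63beta range, 0 to 0.254 CPM, contained all control values. Pooled, this was 3 of 75183943 read pairs in p63alpha (0.0399 CPM, exact Poisson 95% interval 0.00823 to 0.117) and 8 of 82283096 in p63beta (0.0972 CPM, 0.0420 to 0.192). Of the 8 p63beta counts, 7 came from 1 library. A two-sided exact permutation test gave p = 0.9, and exact sign flips within the 3 replicate pairs gave p = 1.0.

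Pdzrn4 had 0, 3 and 2 counts in p63alpha keratinocyte libraries and 8, 9 and 4 in p63beta. The p63beta values, 0.137 to 0.354 CPM, all lay above the p63alpha values, 0 to 0.0998 CPM, which is the opposite direction to epidermis. Such a separation upwards was found for 5.74% of the 20184 genes with any keratinocyte count. The pooled levels were 0.0665 CPM (exact Poisson 95% interval 0.0216 to 0.155) and 0.255 CPM (0.158 to 0.390). The two-sided exact permutation test gave p = 0.1, the smallest that 3 against 3 libraries allow, and 0.2 after Benjamini-Hochberg adjustment over both genes. Pdzrn4 was higher in p63beta in 3 of 3 replicate pairs, and exact sign flips within pairs gave a two-sided p = 0.25, the smallest that 3 pairs allow. Heart and skeletal muscle markers stood apart in p63beta library 3, at 4993 TPM against 132 to 412 TPM in the other 5 libraries. That library held the fewest Pdzrn4 counts of its group. Endothelial markers (2.84 to 6.12 TPM in p63alpha, 7.35 to 22.9 TPM in p63beta) did not overlap between genotypes. Neither did pericyte and smooth muscle markers (454 to 712 and 945 to 1554 TPM), whereas the other marker lists overlapped. DESeq2 called Pecam1 and Acta2 higher, as it called 1.53% of all genes in either direction, and edgeR called neither. The part of such cells in the Pdzrn4 levels was not tested. In edgeR without a filter on low counts, Pdzrn4 had a log2 fold change of 1.90 with a standard error of 0.99 and an adjusted p of 0.85. Slc16a14 had 1.15 with a standard error of 1.30 and an adjusted p of 0.89. Neither gene passed the filter of the fit that tested 13820 genes and called 14 (0.101%). No change in keratinocytes was detectable at this depth, and with 3 and 5 counts in all control libraries there was little room to see a fall.

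The order of levels can be set out per length, although the epidermis and keratinocyte tables were made by different counters. For Slc16a14 the order was p63alpha epidermis (3.67 to 7.40 TPM), p63beta epidermis (0.428 to 0.999 TPM) and then both keratinocyte groups. The keratinocyte groups, at 0 to 0.245 TPM in p63beta and 0.0313 to 0.0452 TPM in p63alpha, overlapped each other. For Pdzrn4 the p63alpha epidermis (1.03 to 1.36 TPM) stood above p63beta epidermis (0.112 to 0.217 TPM). The latter overlapped p63beta keratinocytes (0.0733 to 0.189 TPM), and p63alpha keratinocytes were lowest (0 to 0.0515 TPM). The tissues also differed in differentiated cells: suprabasal and granular markers summed to 72960 to 108946 TPM in p63alpha epidermis and to 58.8 to 143 TPM in p63alpha keratinocytes. Their part in the low keratinocyte levels was not tested. Within epidermis the same markers overlapped between genotypes, at 85845 to 98005 TPM in p63beta.

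Among the other monocarboxylate transporters, edgeR called none lower in p63beta epidermis and 1 higher, against 0.0145% and 0.217% of all genes tested. Of 12 other Slc16 genes described, 8 had enough counts to be tested in epidermis and 3 of those had a log2 fold change below 0, against 50.7% of all genes. An unadjusted p under 0.05 in edgeR was found for 4 of the 8 (Slc16a3, Slc16a5, Slc16a10 and Slc16a11), all higher in p63beta. Over all genes, 4.64% had such a p in either direction. DESeq2 called 2 higher (Slc16a10 and Slc16a11), and 0.987% of all genes in either direction. Slc16a10, a carrier of aromatic amino acids and thyroid hormone, rose from 14.4 ± 1.85 CPM (SD, n = 4) to 32.8 ± 5.24 CPM (SD, n = 4). This was a log2 fold change of 1.25 with a standard error of 0.18 and an adjusted p of 0.0196 in edgeR. Its p63alpha libraries ran from 12.4 to 16.3 CPM and its p63beta libraries from 25.8 to 38.4 CPM, without overlap. The call was lost without EP07, EP08, EP09, EP10, WT3 or KO2 (adjusted p 0.0517 to 0.112) and with only the EP libraries (0.168), and limma on the TPM values also missed it (0.173 and 0.178).

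Slc16a11, a transporter linked by genetics to human type 2 diabetes, had a mean of 0.483 CPM in p63alpha and 2.78 CPM in p63beta. Its adjusted p of 0.0514 (edgeR) did not pass, although the groups, 0.402 to 0.611 CPM and 1.20 to 4.05 CPM in p63beta, did not overlap. It passed with DESeq2, with DESeq2's size factors in edgeR (0.0491), with no filter (0.0479) and without EP12 (0.0127). Slc16a5 had a log2 fold change of 2.08 that rested on KO2, at 13.9 CPM against 1.46 to 2.96 CPM in the other p63beta libraries. Slc16a3, the lactate exporter MCT4, had 1.48 with overlapping groups and no call. The lactate carrier Slc16a1 (MCT1) was at 62.3 ± 10.1 and 52.2 ± 11.2 CPM and was not called. The remaining tested genes, Slc16a6, Slc16a7 and Slc16a13, had log2 fold changes from -0.57 to 0.45. Slc16a4, Slc16a8, Slc16a9 and Slc16a12 were too low to test.

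The SLC16 partner embigin, encoded by Emb, rose in p63beta epidermis. Its p63alpha libraries held 14.6, 21.1, 21.2 and 11.6 CPM (EP07, EP08, EP09, WT3). Its p63beta libraries held 67.7, 69.2, 80.3 and 58.9 CPM (EP10, EP11, EP12, KO2). The groups did not overlap, and the mean went from 17.1 ± 4.81 CPM (SD, n = 4) to 69.0 ± 8.79 CPM (SD, n = 4). The fitted log2 change was 2.09 with a standard error of 0.19 and an adjusted p of 0.00131 in edgeR. It was called under all 16 alternatives tried, with log2 fold changes from 1.91 to 2.19 and adjusted p up to 0.0176. In keratinocytes Emb was at 31.1, 58.6 and 55.1 CPM in p63alpha and 79.1, 93.7 and 94.6 CPM in p63beta. These groups also did not overlap, but the adjusted p was 0.485 in edgeR, where the unadjusted p was under 0.05, and DESeq2 called it higher. Over all keratinocyte genes, 6.85% had such an unadjusted p and DESeq2 called 1.53%. The other partners, Bsg (basigin) and Nptn (neuroplastin), had epidermal log2 fold changes of 0.17 and 0.02 and were not called.

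In cultured keratinocytes 7 of these Slc16 genes were tested and none was called by edgeR. Slc16a3 alone had an unadjusted p under 0.05, and DESeq2 called it, as it did 1.53% of all genes. It was at 32.7 to 40.5 CPM in p63alpha and 47.9 to 88.4 CPM in p63beta, with a log2 fold change of 1.04. Of the 7 genes, 2 were below 0, against 50.3% of all keratinocyte genes tested. Enzymes and carriers that handle lactate and pyruvate, such as lactate dehydrogenase (Ldha) and the mitochondrial pyruvate carrier (Mpc1, Mpc2), were described by a list of 11 genes. Of these, 10 were tested in epidermis, 1 was below 0 and none was called by edgeR or by DESeq2, with none at an unadjusted p under 0.05. The median log2 fold change was 0.17, against a median of -0.00393 over all genes.

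No relative of Pdzrn4 was called in epidermis. Lnx1 and Lnx2, which are ubiquitin ligases of the same RING and PDZ design, had log2 fold changes of -0.12 and -0.21. Pdzrn3, the closest relative, went from 28.5 ± 13.0 to 20.0 ± 5.31 CPM (SD, n = 4 per genotype). Its fitted log2 change was -0.43 with a standard error of 0.32. None of the 3 was called by edgeR or DESeq2, and none had an unadjusted p under 0.05. Numb and Numbl, adaptor proteins of which Numb is a substrate of Lnx1, and Dvl3, a Wnt pathway scaffold, had log2 fold changes of -0.06, 0.25 and -0.14. Musk, the muscle receptor kinase that Pdzrn3 regulates, had 0 counts in all epidermis libraries. Of 16 other PDZ scaffolds of epithelia tested, among them Scrib, Tjp1 and Dlg1, 9 were below 0, with a median of -0.02. None of those was called by either tool, and none had an unadjusted p under 0.05.

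**Figure D4:**
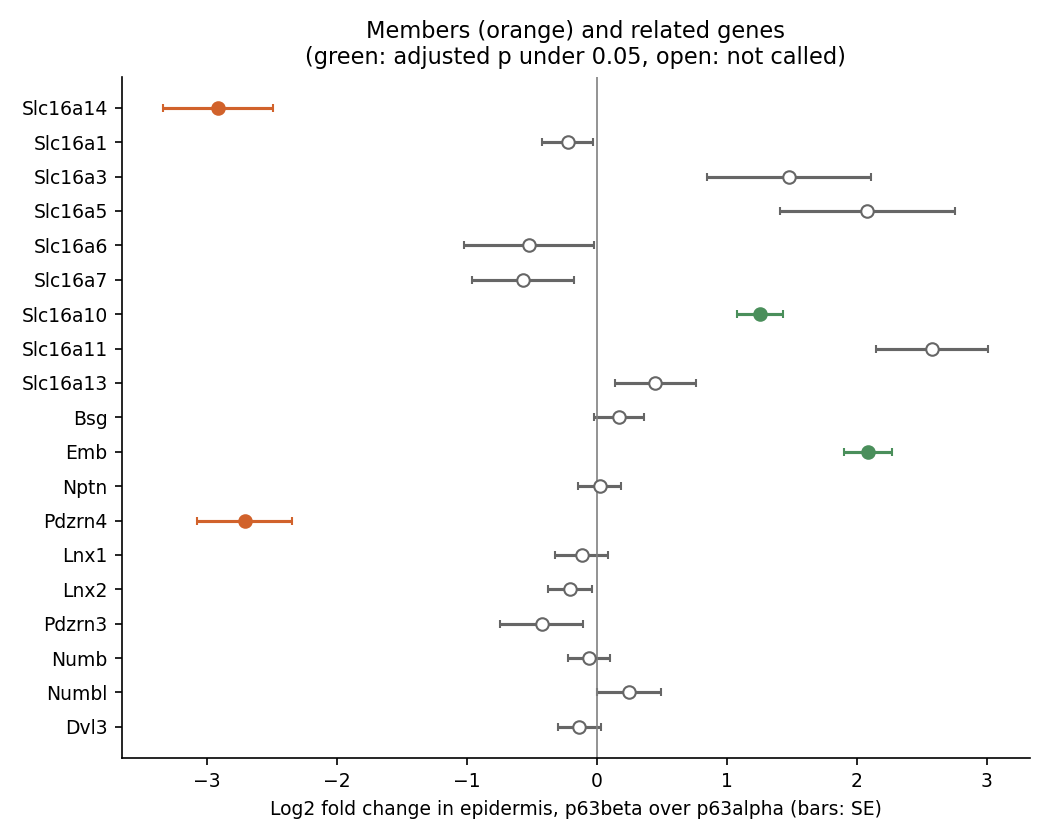
Log2 fold changes in epidermis (points) with standard errors (bars) for Slc16a14, the tested Slc16 genes described here, their partner proteins, Pdzrn4, its relatives and their known partners. Slc16a14 (-2.91) and Pdzrn4 (-2.71) were chosen for their fall, so their place to the left of their families restates that choice. Slc16a10 (1.25) and Emb (2.09) were called higher.

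None of the tested genes next to Slc16a14 and Pdzrn4 on the chromosome was called. Fbxo36, an F-box gene that ends 5.00 kb from Slc16a14, had a log2 fold change of -0.20 with a standard error of 0.43. Trip12, a ubiquitin ligase gene 55.5 kb away, was at 338 ± 3.62 and 292 ± 26.1 CPM (SD, n = 4 each). Its groups did not overlap, but its log2 fold change was -0.16 with a standard error of 0.14, and it was not called. On the other side lie Sp110, Sp140 and Sp100, nuclear body genes from 635 kb away, at -1.01, -0.35 and 0.01. Cntn1, a neural adhesion gene 54.8 kb from Pdzrn4, had a log2 fold change of -1.25 with a standard error of 0.61, and its groups overlapped. Lrrk2, a kinase gene, was at 0.53, and Gxylt1, Yaf2 and Zcrb1 on the far side lay between -0.02 and 0.10. No neighbour was called by edgeR or DESeq2, and none had an unadjusted p under 0.05. Dner and Smgc were too low to test. The long noncoding RNAs Gm39669, Gm52207 and 4930588J15Rik overlap the members in RefSeq and were not among the genes of the epidermis table.

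**Figure D5:**
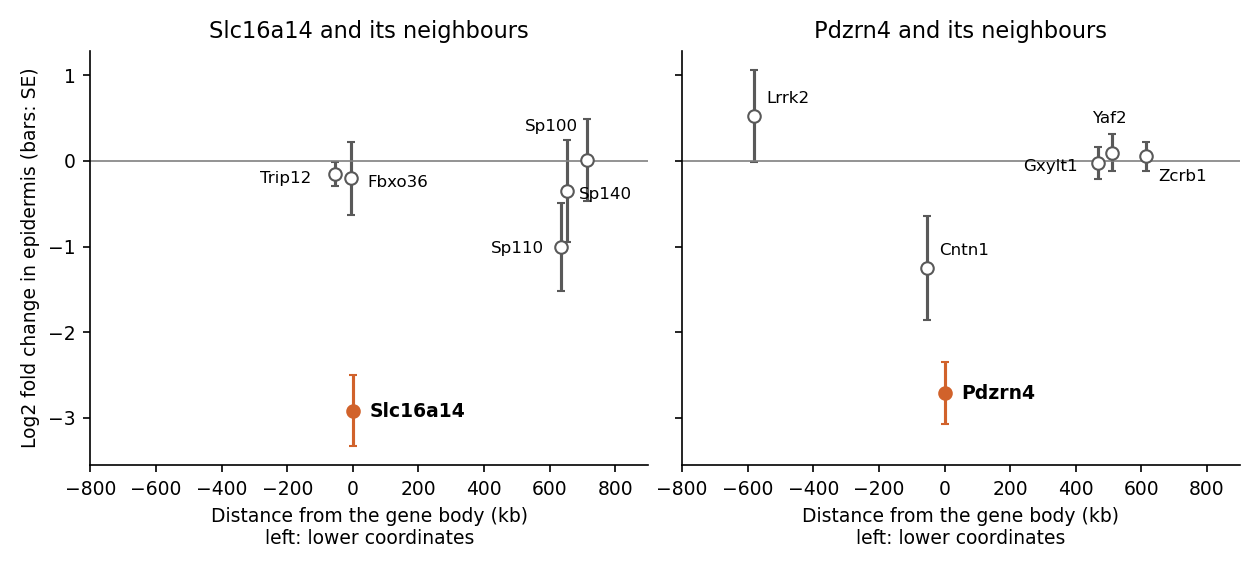
Log2 fold changes in epidermis with standard errors (vertical axis) for Slc16a14 and Pdzrn4 (orange) and for the tested genes among the 3 nearest on each side (open circles), against distance from the gene body in kb. The members lie at -2.91 and -2.71, and the lowest neighbour is Cntn1 at -1.25.

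Likeness of pattern was measured over the 8 epidermis libraries as the Pearson correlation of log2(CPM + 1), among 10017 genes with a mean of at least 5 CPM. The libraries share the genotype difference, so any gene that differs between genotypes scores high. Slc16a14 and Pdzrn4 had r = 0.97 (Spearman's rho 0.88) with each other. For Slc16a14 the highest were Ago1, an Argonaute gene (r = 0.95), Gadl1 (0.95), the CD47 receptor gene Sirpa (0.94), Sec22a, a vesicle transport gene (0.93), and the cytokine receptor kinase gene Jak1 (0.93). For Pdzrn4 they were Tcaf2 (0.94), Ago1 (0.94), Gadl1 (0.92), the desmosomal cadherin gene Dsc3 (0.92) and Nkiras1 (0.92). Ago1 and Gadl1 were on both lists.

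Gadl1 was picked for its likeness to Slc16a14 over these same libraries, so a match within the controls is partly that choice. Gadl1 was at 83.4 CPM in EP07, 46.7 in EP08, 58.1 in EP09 and 127 in WT3. WT3 and EP07 were thus the high controls for both genes. In p63beta it was at 17.6, 16.7, 17.1 and 27.9 CPM in EP10, EP11, EP12 and KO2, where KO2 was high for Gadl1 and low for Slc16a14. WT3 and KO2, the highest Gadl1 libraries of their genotypes, are those whose column names carry the other code. Gadl1 had 0 counts in all 6 keratinocyte libraries. Dsc3 stayed abundant, at 963 ± 45.6 and 667 ± 63.6 CPM (SD, n = 4 each), with a log2 fold change of -0.48 that was not called (adjusted p = 0.506 in edgeR).

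After the group means were removed, the correlation of Slc16a14 with Pdzrn4 was 0.76 (Spearman's rho 0.83) over the same 8 libraries. The genes most like Slc16a14 by this measure were Ap1b1 (r = 0.96), Mocs2 (0.94), Stra13 (0.93), Mrps23 (0.93) and Ttc7 (0.90). For Pdzrn4 they were Stard4 (0.97), Sptan1 (0.97), Cx3cl1 (0.96), Ccdc64b (0.95) and Thrb (0.95). No gene was on both of these lists, and none of the 10 was called. The highest of 10017 correlations over so few libraries is large by selection, so these values are a description.

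Markers of other cell types were summed in each epidermis library. Melanocyte markers, 8 genes including Dct and Tyrp1, summed to 84.3 to 243 TPM in p63alpha and 251 to 367 TPM in p63beta, without overlap. All 8 had a log2 fold change above 0, with a median of 0.995; edgeR called none, 5 had an unadjusted p under 0.05 and DESeq2 called 2 (Dct and Tyrp1). Over all epidermis genes, 4.64% had an unadjusted p under 0.05 and DESeq2 called 0.987%. Fibroblast markers summed to 254 to 338 TPM in p63alpha and 159 to 266 TPM in p63beta, and 5 of the 7 tested were below 0, with a median of -0.53. Of these, 1 (Col1a2) had an unadjusted p under 0.05, and neither tool called any. Hair follicle markers summed to 110 to 858 TPM and 161 to 353 TPM, with 12 of 14 below 0 and a median of -0.57; 1 (Lef1) had an unadjusted p under 0.05 and neither tool called any. The summed T cell markers were 13.3 to 56.8 TPM and 5.99 to 40.9 TPM, and all 5 tested were below 0 with none at an unadjusted p under 0.05 and none called by either tool. Langerhans cell markers summed to 45.9 to 151 TPM and 50.4 to 183 TPM, and 4 of the 5 tested were above 0. Csf1r was below 0, at -0.74, and Cd207 was too low to test (at most 0.167 and 0.201 TPM). Mfge8, a secreted glycoprotein gene, had a log2 fold change of 1.01 without overlap, which DESeq2 called and edgeR did not (adjusted p = 0.176). Mfge8 was also abundant in cultured keratinocytes, at 157 to 253 TPM in p63alpha and 215 to 293 TPM in p63beta. Schwann cell and neuron markers summed to 13.2 to 38.4 TPM and 25.2 to 66.9 TPM, with 4 of the 5 tested above 0. Of those, 1 (Mbp, a myelin protein gene) had an unadjusted p under 0.05, and neither tool called any. Heart and skeletal muscle markers summed to 13.6 to 28.8 TPM and 11.8 to 42.2 TPM, and 2 of the 3 tested were above 0. The muscle actin gene Acta1 had a log2 fold change of 3.55, from means of 0.275 and 3.03 CPM, which DESeq2 called and edgeR did not (adjusted p = 0.403). Merkel cell markers (at most 15.6 and 11.7 TPM), endothelial markers (0.349 to 0.920 and 0.713 to 1.02 TPM) and pericyte and smooth muscle markers (2.85 to 6.33 and 3.55 to 8.00 TPM) had no gene called by either tool. In epidermis only the melanocyte sums had groups without overlap among these lists and the keratinocyte marker lists. No list had a gene at 0 in all epidermis libraries. The part of these cells in the fall of Slc16a14 and Pdzrn4 was not tested.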

How the data were processed

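RNA was measured in 14 libraries, 8 of epidermis and 6 of cultured keratinocytes, made with the TruSeq Stranded mRNA kit per the labels. The keratinocyte counts of read pairs were deposited by the authors per gene, from featureCounts 1.5.2 with strand setting 2 and a minimum overlap of 25 bases, per the file headers. The authors also deposited FPKM values, which were recomputed from those counts and rescaled here to TPM. The epidermis files the authors deposited hold estimated counts per gene and per transcript, and the matching TPM. Salmon is named in the submitters' processing notes. The estimated counts were rounded. The authors' deposited result tables give log2 fold changes and adjusted p-values. STAR and DESeq2 are also named in the submitters' processing notes, and the build was mm10. Columns named WT and KO were read as p63alpha and p63beta. In the result tables, 14 columns of normalised values were not used.

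CPM was computed over the whole library total. Epidermis and keratinocytes were fitted separately with edgeR 4.0.16 (TMM, filterByExpr, robust quasi-likelihood, R 4.3.3), with p-values adjusted over all genes tested by the Benjamini-Hochberg method and called below 0.05. The alternatives were DESeq2 1.42.0, limma 3.58.1 on log2(TPM or FPKM + pseudocount), DESeq2's size factors, no filter and no robust estimation. Others were the column code as a term, the EP libraries alone, a replicate block in keratinocytes, and each library left out. The named genes are the members, Trp63, lists of relatives, the 3 nearest genes on each side, the 5 lower genes with the next lowest p, and the 5 genes most like each member. Unnamed gene models (Gm, LOC and Rik symbols) and pseudogenes were left out of the genes picked by position, p or likeness. The members and lists were chosen with earlier results of these data known. Keratinocyte libraries with the same replicate number deviated together over 12718 genes for replicates 1 and 2 (r = 0.52 and 0.48). For replicate 3 this was weak (r = 0.15, against -0.46 to 0.10 for libraries of unlike number). The numbers were taken to pair the libraries, which no label states. Protein sequences were not used here, and 1 gene of the lists is not reported here.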

Additional observations from a re-analysis of the deposited data

Results flagged for a closer look

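Among 20 groups of 4 epidermis libraries (10 genes), 2 held a library far from the others, where chance gives about 1 in 20. Tcaf2 in p63beta was highest in EP11, at 8.06 CPM against 5.76 to 6.03 CPM in the other libraries, a gap of 0.881 of the range. Gadl1 in p63beta was highest in KO2, at 27.9 CPM against 16.7 to 17.6 CPM, a gap of 0.918 of the range. No library of Slc16a14 or Pdzrn4 stood apart in this way.

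Pdzrn4 was chosen for its fall in epidermis, where all 4 p63beta libraries were lower than any control. In keratinocytes all 3 p63beta libraries were higher than any control, as for 5.74% of the genes with any keratinocyte count. The keratinocyte log2 fold change was 1.90, from 5 and 21 counts in all, with an adjusted p of 0.85 in edgeR without a filter. The difference between the tissues was not tested.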

How the results depend on the processing

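Over 16 alternatives, both members stayed below 0 in epidermis. limma on log2(TPM + 1) gave -1.86 for Slc16a14 and -0.90 for Pdzrn4, and limma on log2(TPM + 0.1) gave -2.25 for Pdzrn4; a pseudocount shrinks low genes by construction. With libraries left out in turn, Slc16a14 ran from -3.09 to -2.61 and Pdzrn4 from -2.83 to -2.60. The count of called epidermis genes was 32, against 155 with DESeq2 (115 higher, 40 lower) and 8 with only the EP libraries. That count was 38 with the column code as a term (34 higher, 4 lower) and 10 to 28 with a library left out. Without EP07, KO2, EP10 or EP11 no lower gene was called. In keratinocytes the count was 14, against 215 with DESeq2, 37 with the replicate block (32 higher, 5 lower) and 1 to 4 with a library left out.

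In keratinocytes Slc16a14 reversed to -0.97 without p63beta replicate 1, the library with 7 of the 8 p63beta counts, and ran from -0.97 to 1.69 over the left-out libraries. Pdzrn4 ran from 1.37 to 2.39. With the replicate block the values were 0.68 for Slc16a14 (adjusted p = 0.911 in edgeR) and 1.97 for Pdzrn4 (adjusted p = 0.660), and no call on either changed. No paired analysis was possible in epidermis because its columns carry no replicate numbers. The limits are few counts in p63beta epidermis and keratinocytes, and 4 or 3 libraries per group. Alternatives for Emb, Slc16a10 and Slc16a11, and the sign flips within keratinocyte pairs, were chosen after seeing the data. The causes of these differences were not tested.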
